A study of Homo sapiens with 12 samples.

Results

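The genes described here encode the proteins of the cytosolic ribosome. They are the protein-coding genes whose symbol starts with RPL or RPS and a digit, or is *RPLP0*, *RPLP1*, *RPLP2* or *RPSA*, with the S6 kinase genes and pseudogenes left out. By this rule 90 of 57820 gene identifiers are members, 55 named for the large subunit and 34 for the small subunit. The last, *RPS19BP1*, encodes a protein that binds the product of *RPS19* and is no subunit protein, so it enters neither subunit. Of the 90, 9 are paralogues of another member and 3 are readthrough genes joined to a neighbour (*RPL17-C18orf32*, *RPL36A-HNRNPH2* and *RPS10-NUDT3*), which held 0 counts in every library.

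The cells were AsPC-1, a human line established from a pancreatic ductal adenocarcinoma, and their rRNA-depleted RNA was sequenced in 4 groups of 3 libraries. SiBACH1 cells received a small interfering RNA (siRNA) against *BACH1* by lipid transfection and were harvested 24 h later, and siCont cells are their control. SgBACH1 cells carry Cas9 and a guide RNA against *BACH1* from the lentiCRISPR v2 vector and were selected in 10 µg/ml puromycin, and sgCont cells are the control of that experiment. *BACH1* encodes a heme-binding repressor of antioxidant genes. The labels do not say whether sgBACH1 cells are a pool or a clone. They also do not call the replicates separate cultures, so the spread behind each p-value is that of the libraries and may be technical.

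The ribosome builds every cellular protein. Its small subunit reads the messenger RNA and its large subunit joins the amino acids, and each holds ribosomal RNA bound by many small basic proteins that are made in matched amounts. Their mRNAs are abundant and short and mostly start with a run of pyrimidines, the 5′ terminal oligopyrimidine (TOP) motif, through which the kinase mTOR and the protein LARP1 set their translation. Many of these genes carry small nucleolar RNA genes in their introns, and the genome holds many processed pseudogenes of them.

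Library totals ranged from 13099706 to 21478886 counts. *BACH1* averaged 25.8 ± 1.69 CPM (counts per 1e6 of a library's TMM-adjusted total) in siBACH1 and 229.1 ± 56.0 CPM in siCont, and 200.6 ± 16.6 CPM in sgBACH1 and 279.3 ± 13.2 CPM in sgCont (SD, n = 3 each), counts over the whole gene that do not measure the protein. Of 10 ductal epithelial markers 9 were detected well enough to be tested, and the other was near 0. Scaled by library totals alone, the summed ductal markers lay between 12567 and 14131 CPM in sgBACH1 and between 19250 and 20533 CPM in sgCont. Gene by gene, 4 of the 9 rose and 4 fell there by edgeR (median log2 fold change 0.17), with *KRT7* (-1.81), *KRT18* (-0.74) and *KRT8* (-0.66) the largest changes. In siBACH1 the sum lay between 13527 and 13800.0 CPM and in siCont between 11252 and 13722 CPM, and 4 rose and 2 fell (median 0.20). Of 7 fibroblast markers only *LUM* was tested, and their sum lay between 45.7 and 51.5 CPM in sgBACH1 and between 113 and 139.9 CPM in sgCont. In the siRNA experiment it lay the other way, between 338 and 361 CPM in siBACH1 and between 294 and 303 CPM in siCont. Endothelial markers stayed under 1 CPM in sum. Of the leukocyte markers *PTPRC*, *CD3E* and *MS4A1* were near 0, while *LYZ* held 11845 to 13669 counts in sgBACH1 and 774 to 1294 counts in sgCont. *CD14* held 47 to 66 counts in sgBACH1 and 20 to 25 in sgCont, and fell in siBACH1 by edgeR (log2 -1.49). *CD68* held 3 to 17 counts in sgBACH1 and 2 to 32 in sgCont. The leukocyte sum lay between 666 and 807 CPM in sgBACH1 and between 55.7 and 71.9 CPM in sgCont. In the siRNA experiment that sum lay between 79.1 and 82.9 CPM in siBACH1 and between 86.7 and 125 CPM in siCont. The part of these markers in the results was not tested.

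These are the starts of 6 members on which the results below turn, shown because most members share such a start although the rule did not use it. Each line gives 20 bases before and 10 bases from the annotated start (RefSeq, GRCh38.p14), with the unbroken pyrimidine run at the start in capitals.
RPS24: ttggccggcgaatcgtggttCTCTTTTCCT
RPL12: cttgtccgcgcgatttccggCCTCTCggct
RPL13A: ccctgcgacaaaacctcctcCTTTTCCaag
RPLP0: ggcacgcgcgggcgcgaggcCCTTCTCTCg
RPL13: gtgcattgcggggccgcttcCTTTCCgctc
RPL39: gctcgttcttccgccagcttCCCTCCTCTT
The windows lie at chr10:78033843-78033872 (plus strand), chr9:127451397-127451426 (minus), chr19:49487588-49487617 (plus), chr12:120201102-120201131 (minus), chr16:89560662-89560691 (plus) and chrX:119791621-119791650 (minus). Of 69 members with a promoter in the table, 48 start with C and at least 4 further pyrimidines (69.6%), against 5.14% of 27305 genes.

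In 300 bases around the start, 250 before and 50 after, the ETS family core CCGGAAG lay on either strand in 24 of 69 members (34.8%) and in 12.2% of all genes. TCTCGCGA lay in 12 members (17.4%, against 1.37% of genes), CTCTTTCC, which overlaps the pyrimidine starts, in 11 (15.9%, against 3.70%) and the YY1 sequence AAGATGGC in 7 (10.1%, against 3.52%). TGACTCAGC, 1 form of the antioxidant response element to which BACH1 and its small Maf partners bind, lay in 0 of 69 members (0% against 0.689% of genes). With so low a share over all genes, 0 of 69 cannot show that members lack it. All these counts are matches of letters in these windows and say nothing of binding.

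Ribosomal protein genes took 3.66% to 4.44% of all counts in a library. Large subunit genes held 2.56%, 2.60% and 2.59% of counts in siBACH1 libraries, against 2.49%, 2.25% and 2.41% in siCont. They held 2.35%, 2.45% and 2.36% in sgBACH1, against 2.17%, 2.13% and 2.23% in sgCont, so that neither pair of groups overlapped. Small subunit genes held 1.78%, 1.84% and 1.82% in siBACH1 and 1.79%, 1.61% and 1.75% in siCont, which overlap. They held 1.70%, 1.78% and 1.69% in sgBACH1, all above the 1.48%, 1.52% and 1.56% of sgCont. In bulk libraries a change in the RNA of each cell and a change in the share of cells that carry it cannot be told apart.

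**Figure D1:**
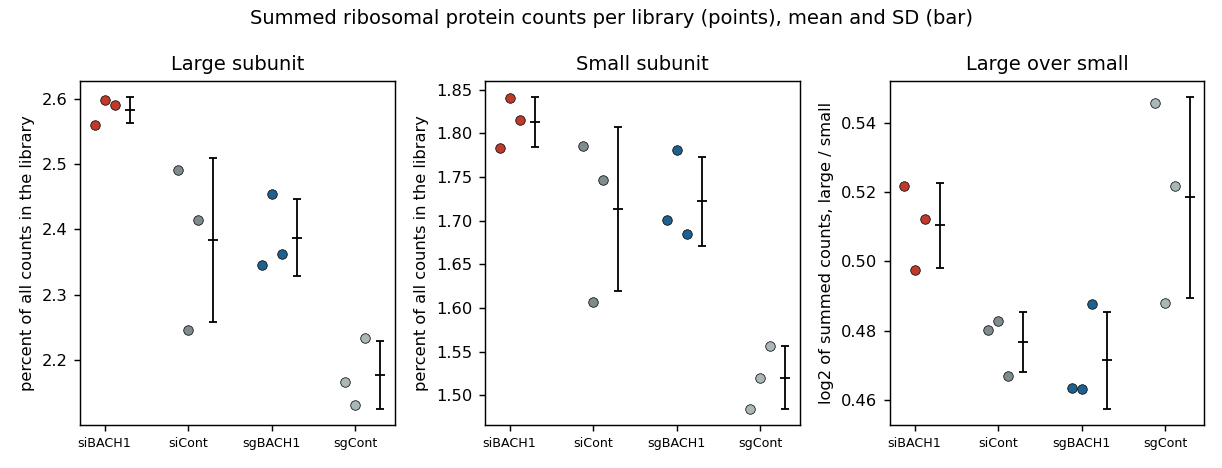
Summed counts of large subunit genes and of small subunit genes as a percent of each library's counts, and the log2 ratio of the sums (axes do not start at 0). Points are libraries and bars are mean ± SD of 3. The log2 ratio lies higher in siBACH1 than in siCont, and at or below the lowest sgCont library in sgBACH1.

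The balance of the subunits, as the log2 ratio of summed large to summed small subunit counts, does not depend on library scaling. It was 0.52, 0.50 and 0.51 in siBACH1 (mean 0.51 ± 0.01 SD) and 0.48, 0.48 and 0.47 in siCont (0.48 ± 0.01), a difference of 0.03 with no overlap. In the knockout experiment it was 0.46, 0.46 and 0.49 in sgBACH1 (0.47 ± 0.01) and 0.55, 0.49 and 0.52 in sgCont (0.52 ± 0.03), a difference of -0.05. The siRNA difference rested on few members. It was 0.0013 without the 5 most abundant members of each subunit, 0.0063 as a mean of log2 CPM over members, and -0.01 without the 4 members that hold an 8-base sequence described below, a setting chosen after seeing the data. The knockout difference lay between -0.06 and -0.02 under every setting tried. Both shifts are changes of a few percent in the ratio, and no test was made of them.

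Levels between genes were compared as CPM per kilobase of the shortest principal transcript, which depends on the annotated 3′ end. For these levels the 12 libraries were scaled together. The median small subunit gene stood at 660.5 CPM per kilobase in siBACH1 and 713 in siCont, and at 743 in sgBACH1 and 638 in sgCont (31 genes). The median large subunit gene stood at 528 in siBACH1 and 486 in siCont, and at 537 in sgBACH1 and 449.97 in sgCont (51 genes). The highest mean levels over the 12 libraries were those of *RPL8*, at 2048 CPM per kilobase, and *RPL30*, at 1804. *RPS21*, *RPS3*, *RPLP0* and *RPS18* followed at 1565, 1563, 1562 and 1560, values closer to each other than the spread between their libraries.

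At the low end stood paralogues and genes that share exons with a readthrough gene. *RPL39L*, the paralogue of *RPL39* known from testis in mammals, averaged 1.54 CPM per kilobase over the 12 libraries. *RPL17* averaged 3.99, *RPL36A* 4.80 and *RPS10* 14.6, and each shares its exons on 1 strand with a readthrough gene that is also a member. *RPL3L* and *RPL10L* held at most 3 counts in any library. In all, 38 members have another gene over an exon on their own strand, most often a small nucleolar RNA, and 31 have one on the opposite strand. The sources used here do not say whether counting used strand, so the counts of these genes are uncertain, as are those of members with near-identical pseudogenes. Annotated pseudogenes of the family held counts equal to 2.52% to 3.42% of the members' counts.

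The siRNA comparison asks how the genes differ 24 h after *BACH1* is targeted. Ribosomal protein genes were changed little, with a large fall of *RPS24*, a smaller fall of *RPL12* and mild rises of others. Of 83 members tested, 14 rose and 2 fell (edgeR, adjusted p below 0.05), against 10.9% of all 14591 genes tested that rose and 13.0% that fell. Of members 16.9% rose and 2.41% fell. Of 51 large subunit genes 8 rose and 1 fell, with a median log2 fold change of 0.07. Of 31 small subunit genes 6 rose and 1 fell, with a median of 0.12, and the median over all genes tested was 0.00. The groups did not overlap for 38 of 83 members, or 45.8%, against 42.5% of all genes tested. The count of rises depended on single libraries: it was 4, 6 and 4 without siBACH1 replicate 1, 2 or 3, and 11, 21 and 7 without siCont replicate 1, 2 or 3. Without siCont replicate 2, 5 members fell. With offsets for gene length and GC content 23 rose and 3 fell, while the median over all genes went from 0.00 to 0.04.

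**Figure D2:**
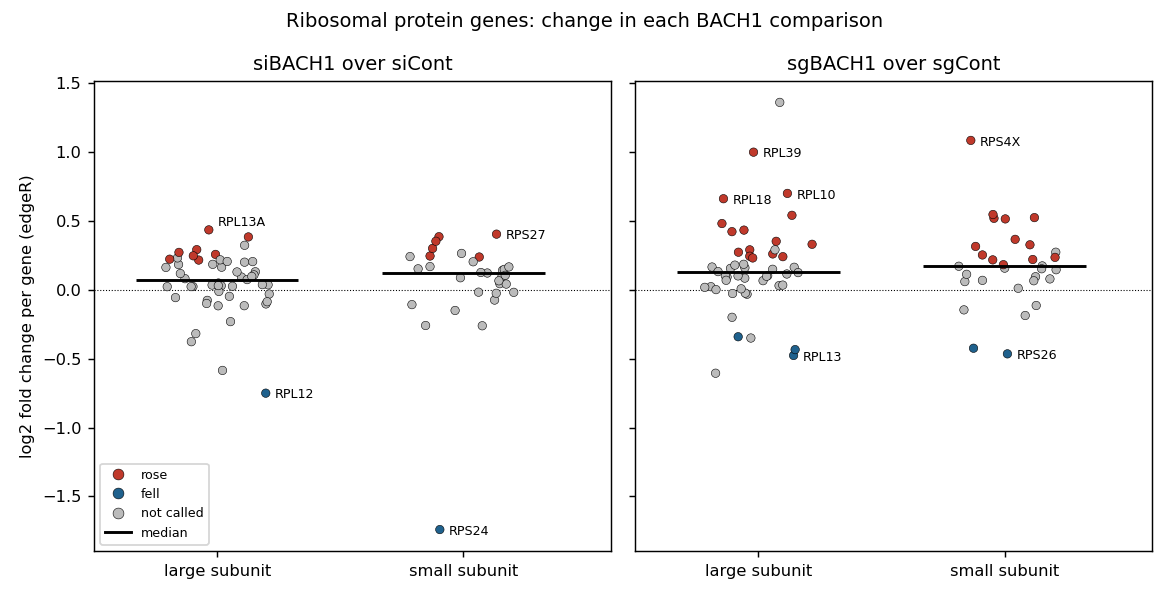
The log2 fold change of each tested ribosomal protein gene by subunit, in siBACH1 over siCont (left) and in sgBACH1 over sgCont (right). Colours give the edgeR call, bars the median of the subunit, and a few genes are named. In siBACH1 most points lie near 0 with *RPS24* far below, and in sgBACH1 the points spread wider, with *RPS4X* and *RPL39* at or above 1.

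*RPS24*, whose product is a small subunit protein needed to process the ribosomal RNA precursor, stood at 213, 230.5 and 209 CPM in siBACH1, against 732, 727 and 722 CPM in siCont. The groups were far apart and tight within themselves. It averaged 217 ± 11.5 CPM in siBACH1 and 727 ± 4.75 CPM in siCont (SD, n = 3), 3.34-fold lower in siBACH1 (log2 fold change -1.74 ± 0.07 SE, edgeR adjusted p = 2.18e-06). *RPL12*, a protein at the base of the large subunit's stalk, stood at 248, 241 and 232 CPM in siBACH1 and 434, 365 and 412 CPM in siCont. It was 1.68-fold lower (log2 -0.75 ± 0.08 SE, edgeR adjusted p = 0.000253). Neither gene fell after knockout. *RPS24* stood at 632, 633 and 645 CPM in sgBACH1, above the 562, 518 and 522 CPM of sgCont (log2 0.25 ± 0.07 SE, edgeR adjusted p = 0.00551). *RPL12* overlapped between groups there, at 355, 411 and 417 CPM in sgBACH1 and 409.7, 351 and 404 CPM in sgCont.

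**Figure D3:**
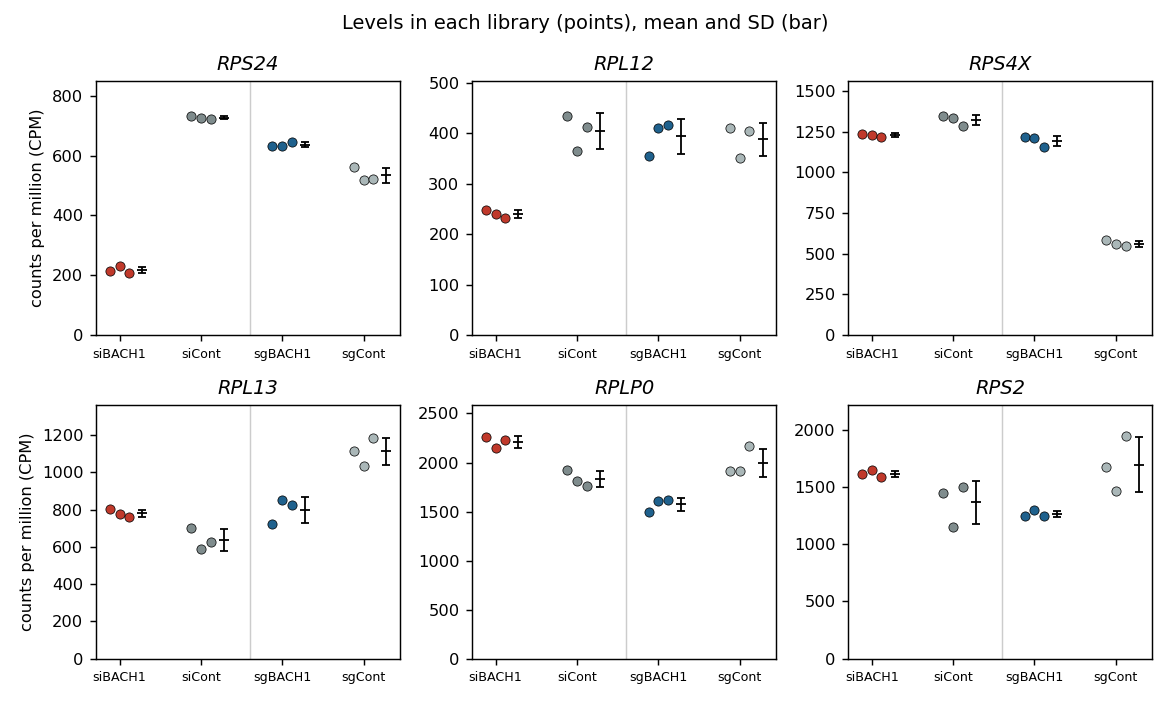
CPM of 6 ribosomal protein genes in each library, with mean ± SD of 3 beside the points. Each experiment was scaled on its own, so levels compare within the siBACH1 and siCont pair and within the sgBACH1 and sgCont pair. *RPS24* and *RPL12* are low in siBACH1, *RPS4X* is low in sgCont, and *RPL13*, *RPLP0* and *RPS2* are lower in sgBACH1 than in sgCont.

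An earlier look at these data found that genes with AACATTA or ACATTAA in the 3′ UTR fell often in siBACH1 cells. Of the 7 tested members with either in a 3′ UTR, 1 fell and none rose by edgeR, with a median log2 fold change of 0.04, while 955 of 2878 such genes fell (33.2%; median -0.22). The search was repeated here for AACATTAA, the 8 bases that join the pair, in the principal transcripts of all genes (GENCODE 29, GRCh38), a choice made after the members' values were seen. Of the 90 members 4 hold it, *RPS24* and *RPL12* among them, and 30 bases around the 3′ UTR matches are shown because these are the class of genes that fell most often. Capitals mark the match.
RPS24: tttttcgcaagAACATTAAtaaactaaaaa
RPL14: ggattataataAACATTAAataatcagttc
In *RPS24* the window lies in the 3′ UTR at chr10:78040663-78040692 (plus strand), with 35 bases of transcript after the match. In *RPL14* it lies in the 3′ UTR at chr3:40462343-40462372 (plus strand). In *RPL12* the match lies in the coding sequence.

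*RPL14*, a large subunit protein, did not fall with *RPS24* and *RPL12*. It stood at 249, 244 and 247 CPM in siBACH1, against 209.6, 217 and 215 CPM in siCont, higher without overlap but short of the threshold (log2 0.21 ± 0.07 SE, edgeR adjusted p = 0.0527). Among the 79 tested members without the match 14 rose and none fell by edgeR. Over all genes, 357 of 686 with the match in the 3′ UTR fell in siBACH1 (52.0%; median log2 fold change -0.54). So did 88 of 300 with it in the coding sequence (29.3%; median -0.15) and 1303 of 10689 without it (12.2%; median 0.03). In the knockout comparison 15.1%, 8.25% and 14.4% of these classes fell. The sources used here hold no sequence of the siRNA, the 8 bases were chosen on these data, and the part of the match in any change was not tested.

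**Figure D4:**
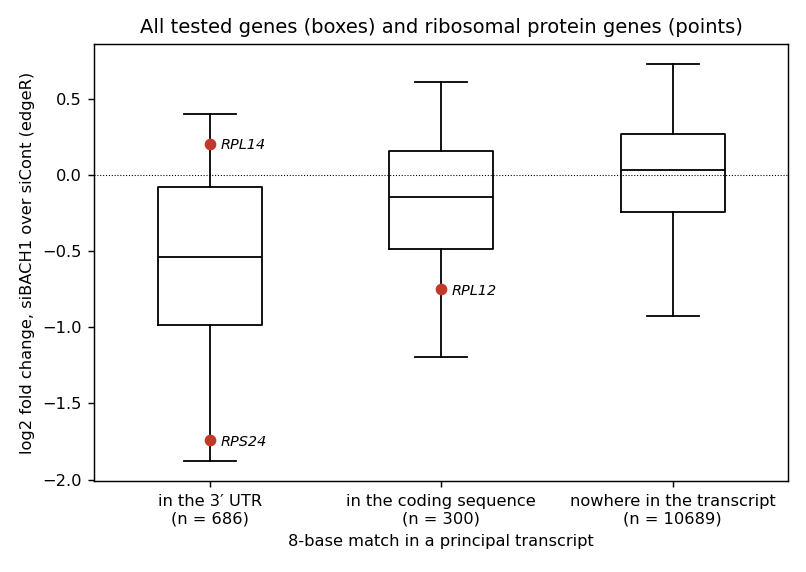
The log2 fold change in siBACH1 over siCont of all tested genes by where the principal transcript holds the 8-base match (boxes from the first to the last quartile with the median, whiskers from the 5th to the 95th percentile). Points are *RPS24*, *RPL14* and *RPL12*, with *RPS24* near the lower whisker and *RPL14* above 0.

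The largest rise in siBACH1 was 1.35-fold. *RPL13A*, a large subunit protein that also takes part in translational silencing after interferon gamma, stood at 892, 882 and 863 CPM in siBACH1 and 657, 631 and 661 CPM in siCont (log2 0.44 ± 0.06 SE, edgeR adjusted p = 0.00128). *RPS27*, a zinc finger protein of the small subunit, stood at 472, 453 and 500.5 CPM in siBACH1, against 395, 319 and 362 CPM in siCont (log2 0.40 ± 0.09 SE, a call lost without siBACH1 replicate 1 or 3). The groups of both genes were separate. *RPS19*, mutated in Diamond-Blackfan anemia, averaged 918 ± 19.9 CPM in siBACH1 and 703 ± 49.9 CPM in siCont (log2 0.39). *RPL22*, which binds structured RNAs outside the ribosome too, averaged 139 ± 4.65 CPM in siBACH1 and 107 ± 4.17 CPM in siCont (log2 0.38). *RPSA*, a small subunit protein also known as the laminin receptor, averaged 732 ± 14.9 CPM in siBACH1 and 573 ± 30.9 CPM in siCont (log2 0.35; SD, n = 3 each). Of the 16 members called, *RPS24*, *RPL12*, *RPL13A*, *RPL22*, *RPS19* and *RPSA* kept their call under all 15 alternatives.

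In the knockout comparison most of the called members were higher. Of 82 tested, 28 rose (34.1%) and 5 fell (6.1%), against 11.3% of all 14469 genes tested that rose and 12.3% that fell (edgeR). Of 50 large subunit genes 15 rose and 3 fell, with a median log2 fold change of 0.13. Of 31 small subunit genes 13 rose and 2 fell, with a median of 0.17, and the median over all genes was 0.01. The groups did not overlap for 45 members (54.9%, against 36.5% of all genes tested). With offsets for gene length and GC content 28 rose and 9 fell.

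The largest rises came from genes on the X chromosome. *RPS4X*, a small subunit protein that escapes X inactivation in human cells, stood at 1214, 1208 and 1154 CPM in sgBACH1 and 582, 559 and 545 CPM in sgCont. The groups lay far apart, 2.12-fold (log2 1.09 ± 0.06 SE, edgeR adjusted p = 3.91e-12). *RPL39*, a short protein lining the exit tunnel, stood at 23.5, 34.7 and 44.2 CPM in sgBACH1 and 18.1, 20.4 and 12.8 CPM in sgCont (log2 1.00 ± 0.20 SE). *RPL10*, which helps to join the subunits, stood at 601, 684 and 674 CPM in sgBACH1, well above 399, 379 and 428 CPM in sgCont (log2 0.70 ± 0.07 SE, edgeR adjusted p = 5.95e-08). In siBACH1 cells none of these 3 was called by edgeR, with log2 fold changes of -0.11 for *RPS4X*, 0.22 for *RPL39* and 0.05 for *RPL10*. With the 12 libraries scaled together, *RPS4X* averaged 799, 857, 787 and 371 CPM per kilobase in siBACH1, siCont, sgBACH1 and sgCont. In that order *RPL10* averaged 553, 533, 512 and 316, and *RPL39* 106, 90.7, 85.6 and 43.0. For all 3 genes sgCont was the group that stood apart, and the reason was not tested.

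Next came genes on chromosome 19. *RPL18*, a large subunit protein, averaged 647 ± 28.1 CPM in sgBACH1 and 409 ± 46.5 CPM in sgCont (log2 0.66 ± 0.08 SE, edgeR adjusted p = 3.86e-07). *RPL28* and *RPL13A*, on the same chromosome, rose by 0.54 and 0.48 on the log2 scale (SD, n = 3 each for the means). *RPS21* on chromosome 20 averaged 549 ± 26.5 CPM in sgBACH1 and 384 ± 34.9 CPM in sgCont (log2 0.52). With the 12 libraries scaled together, *RPL18* averaged 473, 421, 649 and 411 CPM per kilobase in siBACH1, siCont, sgBACH1 and sgCont, highest in sgBACH1. In that order *RPS21* averaged 1842, 1686, 1607 and 1125, lowest in sgCont.

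The 5 members that fell lie on chromosomes 16 and 12. *RPL13* on chromosome 16, a large subunit protein, stood at 720.2, 852 and 823 CPM in sgBACH1 and 1113, 1035 and 1184 CPM in sgCont (log2 -0.48 ± 0.07 SE, edgeR adjusted p = 1.85e-05). *RPS2* on the same chromosome, a small subunit protein near the mRNA entry, stood at 1245, 1297 and 1246 CPM in sgBACH1 and 1675, 1468 and 1939 CPM in sgCont (log2 -0.42). On chromosome 12, *RPS26*, which contacts the mRNA at the exit channel, averaged 157 ± 17.8 CPM in sgBACH1 and 217 ± 19.8 CPM in sgCont (log2 -0.46). *RPL41*, which encodes the smallest ribosomal protein, averaged 89.7 ± 6.41 CPM in sgBACH1 and 121 ± 11.3 CPM in sgCont (log2 -0.43). *RPLP0*, the scaffold of the large subunit stalk, stood at 1497, 1610.1 and 1619 CPM in sgBACH1 and 1912, 1909 and 2164 CPM in sgCont (log2 -0.34 ± 0.06 SE, edgeR adjusted p = 0.000313). The groups of all 5 genes were separate. With the 12 libraries scaled together, *RPL13* averaged 1088, 886, 1129 and 1573 CPM per kilobase in siBACH1, siCont, sgBACH1 and sgCont. In that order *RPS26* averaged 265, 267, 254 and 351, and *RPS2* 1628, 1373, 1291 and 1734. *RPL41* averaged 341, 333, 193 and 260, and *RPLP0* 1805, 1490, 1302 and 1651. So sgCont was the highest group for *RPL13*, *RPS26* and *RPS2* but not for *RPL41* and *RPLP0*, and the reason was not tested.

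Many of the largest changes lay together on chromosomes. Each member was therefore set beside its neighbours, the 50 nearest tested genes on each side that are no members. Of all genes tested, 11.3% rose and 12.3% fell in sgBACH1, and the share among all genes in such neighbourhoods was not computed. Of 10 members whose neighbours had a median log2 fold change above 0.3 in sgBACH1, 8 rose and none fell by edgeR. Of 6 whose neighbours had a median under -0.3, 4 fell and none rose. The other 66 members held 20 rises and 1 fall, that of *RPLP0*, whose neighbours had a median of -0.23. The median of those 66 was 0.14, and their median excess over their neighbours was 0.11.

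The neighbours of *RPS4X* had a median of 0.63, with 41 of 100 higher and 1 lower, and *RPS4X* itself exceeded it by 0.46. *RPL10* and its 70 neighbours had nearly equal values, 0.70 and a median of 0.71. The same held for *RPL13* (-0.48, its 67 neighbours -0.48) and for *RPS2* (-0.42, its 100 neighbours -0.43). *RPL39* exceeded its neighbours' 0.78 by 0.22. *RPS9*, on chromosome 19 among neighbours with a median of 0.43, was not called (log2 0.15). It averaged 414 ± 23.9 CPM in sgBACH1 and 374 ± 27.6 CPM in sgCont (SD, n = 3 each). *RPL36A*, with few counts, was not called either, though its log2 fold change was 1.36 beside 0.58 for its neighbours. Its groups did not overlap (edgeR adjusted p = 0.0872). *RPS15A* on chromosome 16 was not called among falling neighbours (log2 -0.19, neighbours -0.37). *RPL22L1* was not called either, but its log2 fold change was -0.61 beside -0.36 for its neighbours (edgeR adjusted p = 0.0580). In siBACH1 cells the neighbours of *RPS4X*, *RPL10* and *RPL13* had medians of 0.07, 0.11 and 0.17. What the members share with their neighbours was not tested.

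**Figure D5:**
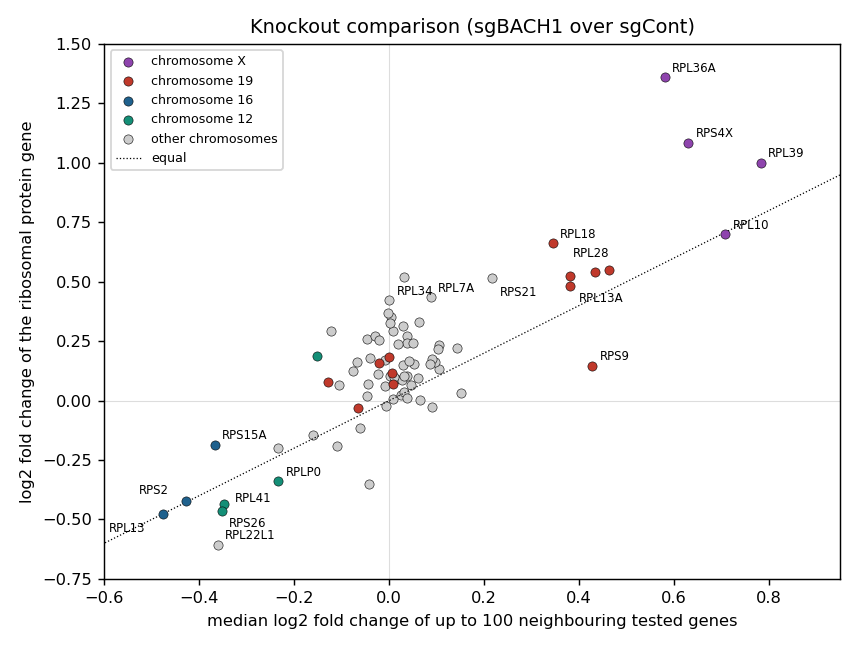
The log2 fold change of each tested ribosomal protein gene in sgBACH1 over sgCont (y) against the median of its up to 100 neighbouring tested genes (x). Colours give 4 chromosomes, and the dotted line marks equal values. Genes on X lie at the upper right, those on chromosomes 16 and 12 mostly at the lower left, and the cloud at the centre lies above 0.

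Members far from such neighbourhoods also rose. *RPL7A*, a large subunit protein on chromosome 9, had a log2 fold change of 0.43 beside 0.09 for its neighbours. *RPL34* on chromosome 4 had 0.42 beside 0.00, and *RPS14* on chromosome 5, whose loss causes the anemia of the 5q- syndrome, had 0.37 beside 0.00. *RPS6*, the small subunit protein that the S6 kinases phosphorylate, stood at 507, 478 and 428 CPM in sgBACH1, all above 381, 387 and 367 CPM in sgCont (log2 0.32 ± 0.07 SE, edgeR adjusted p = 0.00201). In siBACH1 it stood at 628, 665 and 622 CPM and in siCont at 576, 568 and 562 CPM, separate but not called (log2 0.17 ± 0.07 SE, edgeR adjusted p = 0.0993).

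The 5S particle joins *RPL5* and *RPL11* proteins to 5S RNA, and both proteins can bind MDM2, the ubiquitin ligase of p53. *RPL5* averaged 543 ± 20.9 CPM in sgBACH1 and 459 ± 11.9 CPM in sgCont and rose (log2 0.24 ± 0.07 SE, edgeR adjusted p = 0.00894; 0.0519 without sgBACH1 replicate 1 and 0.085 with length and GC offsets). *RPL11* averaged 465 ± 11.6 CPM in sgBACH1 and 415 ± 35.9 CPM in sgCont and was not called (log2 0.16 ± 0.07 SE, edgeR adjusted p = 0.108). In the siRNA comparison neither was called, with log2 fold changes of 0.13 and 0.18.

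The stalk of the large subunit, which calls elongation factors to the ribosome, holds RPLP0 and dimers of RPLP1 and RPLP2. Its scaffold moved in opposite directions in the experiments. *RPLP0* stood at 2262, 2146 and 2229.8 CPM in siBACH1, above 1927, 1808 and 1762 CPM in siCont (log2 0.27 ± 0.07 SE, edgeR adjusted p = 0.016; 0.0502 to 0.0772 without siBACH1 replicate 1 or 3 or siCont replicate 3), and was lower in sgBACH1 as given above. *RPLP1* and *RPLP2* were called in neither, with log2 fold changes of 0.10 and 0.13 in siBACH1 and of 0.10 and 0.10 in sgBACH1. *RPL3*, a core protein of the peptidyl transferase region, was called in neither (log2 -0.09 in siBACH1 and 0.07 in sgBACH1). *RPS3*, which lies at the mRNA entry and also acts in DNA repair, was lower in all 3 siBACH1 and all 3 sgBACH1 libraries than in their controls without being called (log2 -0.15 in siBACH1 and -0.15 in sgBACH1).

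Of the paralogues, *RPS27L*, a target of p53 and paralogue of *RPS27*, averaged 31.6 ± 3.77 CPM in sgBACH1 and 22.1 ± 5.28 CPM in sgCont (SD, n = 3 each) and rose (log2 0.52 ± 0.17 SE, edgeR adjusted p = 0.0232). Leaving out sgBACH1 replicate 2 or 3 or sgCont replicate 1 or 3 ended this call (edgeR adjusted p 0.0548 to 0.156). Its parent *RPS27* was not called there (log2 0.11), and in siBACH1 *RPS27* rose and *RPS27L* was not called (log2 -0.26). *RPL22L1*, which takes the place of RPL22 in some ribosomes, was not called in either (log2 -0.32 in siBACH1 and -0.61 in sgBACH1), while *RPL22* rose in both (0.38 and 0.29). *RPL26L1*, *RPL7L1* and *RPL36AL* were called in neither comparison, nor were *RPL26* and *RPL36A*, while *RPL7* rose in sgBACH1 (log2 0.23), a call lost without any 1 of the sgBACH1 libraries or sgCont replicate 2 and with length and GC offsets. *RPL36A* rested on 67, 31 and 49 counts in sgBACH1 and 28, 17 and 9 counts in sgCont. *RPS4Y1*, *RPL3L* and *RPL10L* had too few counts to be tested.

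The experiments had 5 rises in common, among them those of *RPL13A*, *RPL22*, *RPL28* and *RPS19*. They are 5 of the 14 members that rose in siBACH1, beside 34.1% of all tested members that rose in sgBACH1. They are also 5 of the 28 that rose in sgBACH1, beside 16.9% that rose in siBACH1. The overlap was not tested, and no member fell in both. *RPL13* and *RPLP0* rose in siBACH1 and fell in sgBACH1, and *RPS24* fell in siBACH1 and rose in sgBACH1. *RPL13A* kept both calls under all 15 alternatives of each comparison. *RPL28* kept its siRNA call under 9 of 15, and the 6 that ended it include leaving out any 1 of the siBACH1 libraries or siCont replicate 1, and length and GC offsets. *RPL22* kept its knockout call under 12 of 15, losing it without sgBACH1 replicate 1 or 3 or sgCont replicate 3. *RPS19* kept its own under 8 of 15, losing it without any 1 of the sgBACH1 libraries or sgCont replicate 1 or 2, with DESeq2's size factors and with no filter on low counts. *RPL13* kept its siRNA call under 10 of 15, losing it without any 1 of the siBACH1 libraries or siCont replicate 3 and with length and GC offsets. No control library is shared between the experiments.

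The difference of the responses, the knockout's minus the siRNA's in 1 fit of 12 libraries, was called for 15 of 83 members (18.1%), 10 upwards and 5 downwards (edgeR). Over all 15644 genes tested it was called for 23.6%. With offsets for gene length and GC content 24 were called, 10 upwards and 14 downwards. The largest by size was that of *RPL39L* (3.01 ± 1.03 SE on the log2 scale, edgeR adjusted p = 0.0433), which rests on 23, 12 and 7 counts in sgBACH1 and 0, 3 and 1 counts in sgCont, beside 23, 36 and 38 counts in siBACH1 and 27, 18 and 18 counts in siCont. It kept its call under 9 of 21 alternatives, and leaving out any of 9 single libraries ended it. *RPS24* differed by 1.99 ± 0.09, *RPS4X* by 1.19 ± 0.08, *RPL12* by 0.77 ± 0.12 and *RPL13* by -0.77 ± 0.12 (SE). *RPS2* (-0.67), *RPLP0* (-0.62), *RPL41* (-0.47) and *RPSA* (-0.35) were also lower in the knockout's response, and *RPL41* lost its call without siBACH1 replicate 2. Of the 15, 10 kept their call under all 21 alternatives.

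Members were also split by their start, beside 10.9% of all genes tested that rose and 13.0% that fell in siBACH1, and 11.3% and 12.3% in sgBACH1. Of 47 tested members with such a start 11 rose and 2 fell in siBACH1, and 19 rose and 3 fell in sgBACH1. Of 20 with another start 1 rose and none fell in siBACH1, and 3 rose and 1 fell in sgBACH1 (edgeR). The medians were 0.12 and 0.00 in siBACH1 and 0.17 and 0.11 in sgBACH1, and the difference was not tested. The split covers only part of the tested members and of their calls. Another start means only that the annotated start is not C followed by at least 4 pyrimidines.

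*RACK1* and *FAU*, ribosomal protein genes that the name rule does not reach, were set beside the members. *RACK1*, a small subunit scaffold for kinases, stood at 1821, 1892 and 1849 CPM in sgBACH1 and 1545, 1541 and 1627 CPM in sgCont and rose (log2 0.24 ± 0.06 SE, edgeR adjusted p = 0.00406). *FAU*, which encodes a small subunit protein fused to a ubiquitin-like one, had log2 fold changes of 0.08 in siBACH1 and -0.02 in sgBACH1, and neither passed the test (edgeR).

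Other gene lists of translation stand beside 23.9% of all genes tested that were called in siBACH1 and 23.5% in sgBACH1. Of 19 tested TOP mRNAs for elongation factors and others, 5 rose and 1 fell in siBACH1 (31.6% called; median log2 0.16), and 2 rose and 2 fell in sgBACH1 (21.1%; median -0.01). *HNRNPA1*, an RNA-binding protein, rose by 0.75 and *EIF4B*, a helicase cofactor in initiation, by 0.52 in siBACH1, where *VIM*, the intermediate filament vimentin, fell by 0.64 (log2). In sgBACH1 *EIF3E* rose by 0.35, *EIF4A2* fell by 0.31 and *NACA* fell by 0.25. Of 27 initiation factors 1 rose and 6 fell in siBACH1 (25.9%; median -0.13), led by *EIF1AX* (-0.84), *EIF4E* (-0.78), the cap-binding protein, and *EIF2S1* (-0.46). In sgBACH1 2 rose and 4 fell (22.2%; median 0.03), led by *EIF2B5* (-0.68), *EIF4G1* (-0.67) and *EIF2B1* (-0.39).

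Of 57 tested assembly factors 3 rose and 5 fell in siBACH1 (14.0%, against 23.9% of all genes; median -0.04), led by *GAR1* (-0.90), *UTP15* (-0.80) and *PNO1* (-0.79). In sgBACH1 3 rose and 6 fell (15.8%, against 23.5%; median -0.10), led by *UTP14A* (0.61), *RBIS* (0.55) and *RRP12* (-0.50). Of 14 RNA polymerase I genes 1 fell in siBACH1 (7.14%), and 1 rose and 3 fell in sgBACH1 (28.6%). Of 14 small nucleolar RNA host genes, noncoding TOP transcripts for the most part, 2 rose in siBACH1 (14.3%; median -0.11) and 8 rose in sgBACH1 (57.1%; median 0.33), with none falling by edgeR. In sgBACH1 these were led by *SNHG12* (0.60), *SNHG15* (0.58) and *SNHG7* (0.57).

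Of 14 regulators of TOP mRNA translation 3 rose and 2 fell in siBACH1 (35.7%, against 23.9% of all genes; median -0.03), led by *RHEB* (0.76), the activator of mTOR, *TSC1* (0.72) and *EIF4EBP2* (0.71). Of the 13 tested in sgBACH1 1 rose and 5 fell (46.2%, against 23.5%; median -0.19), led by *MLST8* (-0.64), *TSC2* (-0.62) and *EIF4EBP1* (-0.49). The ribosomal proteins of mitochondria, a separate family, had 1 rise and 11 falls among 75 tested in siBACH1 (16.0%; median -0.05), led by *MRPL35* (-1.03), *MRPS23* (-0.76) and *MRPS36* (-0.59). In sgBACH1 they had 4 rises and 7 falls among 74 (14.9%; median -0.01), led by *MRPS31* (0.73), *MRPL28* (-0.72) and *MRPS34* (-0.61).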

How the data were processed

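Per the labels, 12 libraries of rRNA-depleted RNA were built with Ion Total chemistry and read on an Ion Proton. Each experiment has 1 deposited table of raw counts by gene. The submitters' processing notes name HTSeq 0.9.1, SAMtools and hg19. Aligner, counting mode and strand setting: not given in the sources used here. Every column matched a sample by the number in the sample's description, and the titles gave group and replicate. Totals ranged from 13099706 to 21478886 counts.

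Groups follow the sample titles. Tests used edgeR 4.0.16 under R 4.3.3 (TMM, filterByExpr with a minimum count of 10, quasi-likelihood test, Benjamini-Hochberg over all genes tested, adjusted p below 0.05), each experiment alone and the difference in 1 fit of all 12 libraries. SE is the log2 fold change over the square root of F. CPM are TMM-scaled. DESeq2 1.42.0 and limma 3.58.1 served as alternatives. The edgeR steps were tested on simulated data. Libraries of the same replicate number were not treated as pairs. Correlations of their deviations ran from -0.02 to 0.06, and those between different numbers from -0.06 to 0.03. Symbols came from a table of current names (51996 of 57820 identifiers) or GENCODE 29 (GRCh38), whose coordinates were never set against hg19. Promoters come from RefSeq.

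Members, lists and tests were chosen with earlier results of these data known. All members may be named. In full are given the called members with the 5 largest rises and falls of a comparison, the 5 largest differences, the paralogues, and *RPL5*, *RPL11*, the stalk, *RPS6*, *RPSA*, *RPL3*, *RPS3* and *RPL41*, and of each other list the 3 largest called changes. Some genes and sequences that these rules select are left out of the text.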

Additional observations from a re-analysis of the deposited data

Results flagged for a closer look

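Of all 15644 genes tested, 23.6% were called by edgeR's test of the difference between the responses to the knockout and to the siRNA. The responses differed for 15 of 83 ribosomal protein genes (18.1%) by this test of the difference itself. On the log2 scale, knockout minus siRNA, it was higher for 10, among them *RPL39L* (3.01, from at most 38 counts in any library), *RPS24* (1.99), *RPS4X* (1.19), *RPS27L* (0.77), *RPL12* (0.77), *RPL10* (0.64), *RPL18* (0.49), *RPS21* (0.39) and *RPL15* (0.34). It was lower for *RPL13* (-0.77), *RPS2* (-0.67), *RPLP0* (-0.62), *RPL41* (-0.47) and *RPSA* (-0.35). Of those named as higher, *RPS24* and *RPL12* hold AACATTAA in a principal transcript, and *RPS4X*, *RPL10* and *RPL18* lie among neighbours whose median rose above 0.3 in sgBACH1. Of the 5 that were lower, *RPL13*, *RPS2* and *RPL41* lie among neighbours with a median under -0.3 there. The part of either feature was not tested.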

How the results depend on the processing

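Members rose in the siRNA comparison 14 times, and 23 times with offsets for gene length and GC content. All genes shifted too with these offsets. Of their calls 45.6% were rises without the offsets and 52.3% with them, and their median log2 fold change went from 0.00 to 0.04. Members rose 4 to 21 times with 1 library left out. With a replicate block, which pairs libraries by their number, they rose 8 times and *RPL28* was not called. The 2 falls were 2 to 5 with 1 library left out, and 0 among members without AACATTAA, a setting added after seeing the data. In the knockout comparison the 28 rises were 19 to 30 and the 5 falls 5 to 6 with 1 library left out, and 31 and 6 with the replicate block. Falls were 9 with the offsets, and 1 when members with a neighbourhood median beyond 0.3 were left out (20 rises), added after seeing the data. The 15 calls of the difference were 13 to 21 with 1 library left out, 24 with the offsets and 15 with the block. Among all genes, the upward share of the difference's calls went from 55.2% to 48.2% with the offsets. The siRNA change of large over small subunit, 0.03, was 0.03 to 0.04 with 1 library left out, 0.0063 as a mean of log2 CPM, 0.0013 without the 5 most abundant members of each subunit, and reversed to -0.0132 without members that hold AACATTAA. The knockout change, -0.05, was -0.06 to -0.03 with 1 library left out. Other scalings, filters and tools kept these counts within 1.5 times. The cause of each shift was not tested. No named member called in a comparison changed sign under any setting. In the siRNA comparison 6 of 16 called members kept their call throughout, in the knockout 21 of 33 and in the difference 10 of 15. Members with few counts, such as *RPL39L* and *RPL36A*, had the widest errors.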
